A study of Arabidopsis thaliana with 10 samples.

Results

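WRKY transcription factors are plant proteins that bind DNA through a domain of about the same sequence in all members, and the 10 genes described here, WRKY6, WRKY11, WRKY18, WRKY33, WRKY40, WRKY46, WRKY50, WRKY53, WRKY60 and WRKY75, are members with known parts in defence, senescence or both. They were chosen by gene identifier from the 32833 genes of the RNA-seq tables of Arabidopsis thaliana Col-0. Whole wild-type seedlings of 10 days were exposed for 2 h to methyl jasmonate vapour (JA) or left untreated (ctrl). Set2 held 3 JA and 3 ctrl libraries (Set2_2hJA and Set2_ctrl), and the pilot experiment Set1 held 2 JA and 2 ctrl libraries (Set1_2hJA and Set1_ctrl). The study calls the libraries of a group biological replicates. No transgene or mutation is named for these seedlings, and the whole seedling mixes organs, so that a change in RNA per cell and a change in the share of cells that use a gene cannot be told apart.

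The WRKY domain recognises the W-box, a short DNA element that is frequent in defence genes, many WRKY genes included. WRKY genes are known to be switched on by microbial patterns, salicylic acid, wounding and touch, while jasmonic acid acts mainly through the factor MYC2 and its JAZ repressors. Group I factors carry a pair of WRKY domains, and groups II and III a single one. Among the 10, WRKY18, WRKY40 and WRKY60 form group IIa, WRKY6 belongs to IIb, WRKY50 and WRKY75 to IIc, WRKY11 to IId, WRKY33 to I, and WRKY46 and WRKY53 to III.

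The coding stretch of the heptapeptide that names the family is printed for every domain of the 10 genes, because it shows what the members share and where 1 of them departs. Stretches were read from the RefSeq coding sequences on TAIR10.1, 5′ to 3′, with the sixth codon in capitals.
WRKY6: tggagaaaatatggcCAGaag
WRKY11: tggaggaagtacggaCAAaaa
WRKY18: tggaggaaatacggaCAAaag
WRKY33 (amino-terminal domain): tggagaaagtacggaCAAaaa
WRKY33 (carboxy-terminal domain): tggagaaaatacggcCAGaaa
WRKY40: tggaggaaatatggaCAGaaa
WRKY46: tggagaaaatatgggCAAaaa
WRKY50: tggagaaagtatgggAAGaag
WRKY53: tggagaaaatatggtCAAaaa
WRKY60: tggaggaaatacgggCAAaag
WRKY75: tggaggaaatatggcCAAaag
The sixth codon was CAA or CAG, codons of glutamine, in every stretch but that of WRKY50, which had AAG, a codon of lysine. WRKY50 is the only 1 of the 10 with this variant domain, and WRKY33 the only 1 with 2 stretches. The other codons differed between members only in synonymous positions, since the search required the remaining residues of the signature.

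The genes lay on chromosomes 1, 2, 4 and 5 of TAIR10.1. RefSeq places WRKY18 (AT4G31800) at chr4:15382777-15385100 on the plus strand, with up to 5 exons, WRKY33 (AT2G38470) at chr2:16108235-16110766 on the plus strand, with 5 exons, and WRKY53 (AT4G23810) at chr4:12392370-12393982 on the minus strand, with 2 exons. Upstream sequence is printed for these genes because WRKY18 was the member called after JA, and WRKY33 and WRKY53 held the most W-boxes. Each run is the 300 bases before the annotated gene start, 5′ to 3′ on the gene's strand, with W-boxes (TTGACC or TTGACT on either strand) in capitals.
WRKY18, chr4:15382477-15382776, plus strand: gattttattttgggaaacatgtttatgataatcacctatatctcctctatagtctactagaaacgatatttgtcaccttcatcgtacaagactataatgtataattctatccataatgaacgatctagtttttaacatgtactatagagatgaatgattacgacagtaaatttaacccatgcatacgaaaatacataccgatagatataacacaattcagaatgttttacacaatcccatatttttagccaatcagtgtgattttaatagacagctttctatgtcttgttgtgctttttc
WRKY33, chr2:16107935-16108234, plus strand: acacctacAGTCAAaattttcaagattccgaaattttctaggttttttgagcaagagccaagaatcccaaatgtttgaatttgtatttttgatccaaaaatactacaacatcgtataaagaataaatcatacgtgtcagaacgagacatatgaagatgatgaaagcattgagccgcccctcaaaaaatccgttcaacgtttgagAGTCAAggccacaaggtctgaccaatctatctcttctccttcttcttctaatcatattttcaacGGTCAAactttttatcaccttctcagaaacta
WRKY53, chr4:12393983-12394282, minus strand: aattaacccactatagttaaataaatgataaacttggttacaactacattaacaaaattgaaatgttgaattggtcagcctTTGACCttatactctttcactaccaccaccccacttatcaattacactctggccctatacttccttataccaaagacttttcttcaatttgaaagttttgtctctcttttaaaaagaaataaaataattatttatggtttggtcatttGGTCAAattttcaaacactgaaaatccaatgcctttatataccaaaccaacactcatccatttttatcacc
WRKY33 had 3 W-boxes, WRKY53 had 2, WRKY11, WRKY50 and WRKY75 had 1 each, and the other 5 genes had no match. Of the upstream windows of 27443 protein-coding genes, 32.3% held a W-box. The G-box, an element bound by MYC2, was searched for as CACGTG only. In that form it was in none of the 10 windows and in 7.09% of all windows. The study gives the preferred MYC2 motif as CACGTG/T. The form CACGTT was not searched for, and the WRKY40 window holds it on the opposite strand (AACGTG). The W-box and G-box letters cannot overlap in these windows, since no G-box was found. A match describes letters only, and the lack of a match in 300 bases does not show that MYC2 is not bound at a gene. The study's MYC2 core genes, WRKY18 among them, were also chosen for MYC2 occupancy that rose with JA in regulatory DNA.

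Total expected counts were 6333822 to 7774547 in Set2 and 12147941 to 17200426 in Set1. JA marker genes moved with the labels: MYC2, the master regulator of the pathway, was higher in Set2_2hJA than in Set2_ctrl by 3.52 ± 0.44 (log2 fold change ± SE, edgeR adjusted p = 0.00229) and in Set1_2hJA than in Set1_ctrl by 3.69 ± 0.32 (adjusted p = 0.00117). Libraries stood apart in both sets. Genes without a count in any Set1 library held 8.82 counts per kb in Set2_2hJA replicate 1, against 0.219 to 0.839 in the other Set2 libraries. Plastid-encoded genes held 11.4% of counts in Set1_2hJA replicate 1 and 13.8% in Set1_ctrl replicate 1, against 0.121% to 2.61% in the other libraries.

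Levels per length, as TPM (estimated transcripts scaled to a common total, as deposited), placed WRKY11 first in all 4 groups. Its mean was 57.6 ± 11.0 TPM in Set2_2hJA and 44.7 ± 3.7 TPM in Set2_ctrl (SD, n = 3 each), and 30.7 ± 7.8 TPM in Set1_2hJA and 34.7 ± 12.9 TPM in Set1_ctrl (SD, n = 2 each). In Set2_ctrl the order went on with WRKY60 at 33.1 ± 5.7, WRKY33 at 31.4 ± 5.0, WRKY6 at 17.0 ± 2.0 and WRKY18 at 11.7 ± 4.5 TPM. The ranges of WRKY60 and WRKY33 overlapped, as did those of every pair of neighbours from WRKY6 downwards. WRKY53 (7.70 ± 3.95), WRKY40 (6.79 ± 2.998), WRKY75 (5.89 ± 2.43), WRKY46 (4.50 ± 1.44) and WRKY50 (2.79 ± 0.82 TPM) followed. In Set1_ctrl the order was another 1 below WRKY11: WRKY6 had 6.84 ± 2.90 and WRKY33 6.23 ± 1.61 TPM, WRKY18 had 2.20 ± 0.18 TPM, and WRKY40 was last at 0.735 ± 0.290 TPM. After JA WRKY18 stood second in both sets, at 31.6 ± 18.5 TPM in Set2_2hJA and 12.9 ± 2.2 TPM in Set1_2hJA, with a range that overlapped that of the next gene in both groups. Without Set2_2hJA replicate 1 the Set2_2hJA mean was 22.77 TPM for WRKY60 and 20.95 TPM for WRKY18, which was then the third.

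**Figure D1:**
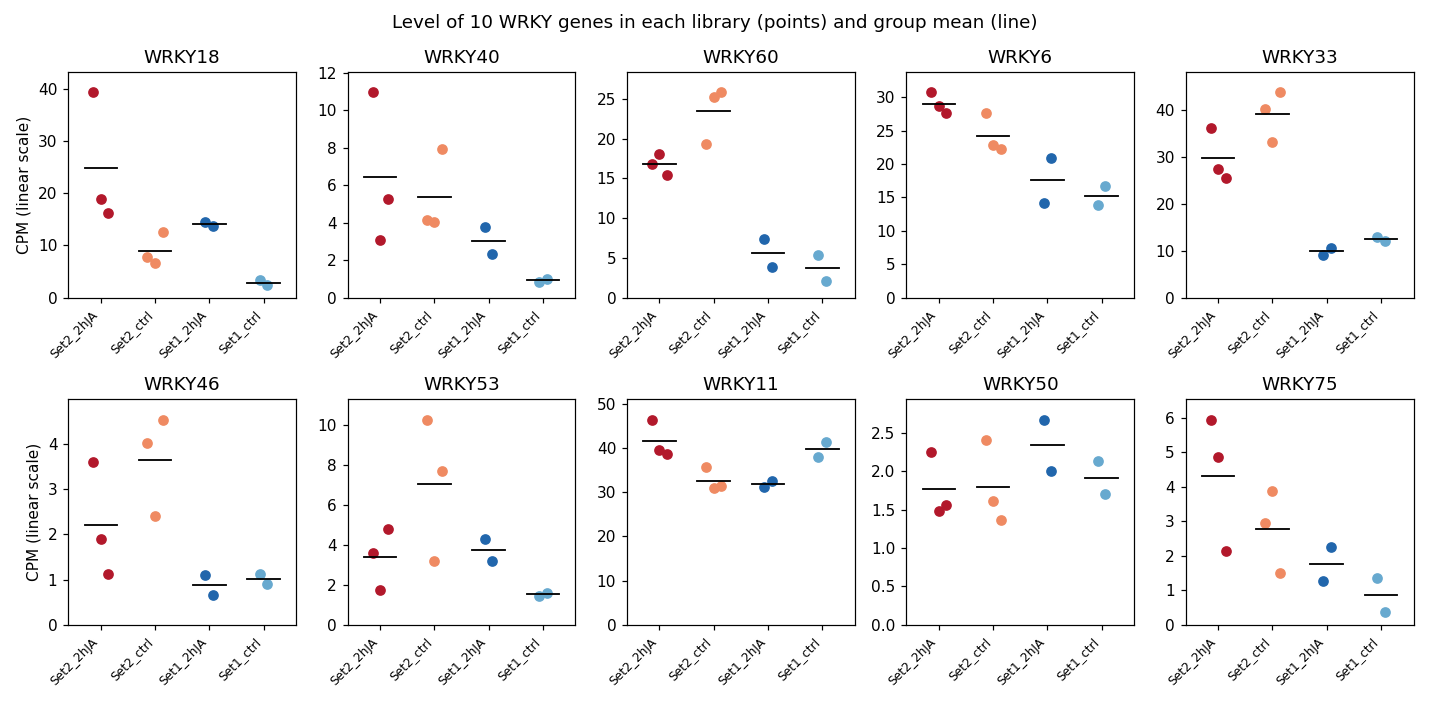
CPM (counts scaled to a common total, from the TMM-scaled libraries, linear axis from 0) of the 10 WRKY genes in each of the 10 libraries, with 1 point per library, a line at the group mean and the groups along the x axis. The 2 Set1_2hJA points of WRKY18 lie at 14.6 and 13.7 CPM, far above the Set1_ctrl points at 3.33 and 2.42 CPM, and the Set2_ctrl points of WRKY33 and WRKY60 lie above every Set1 point.

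The first question was which of these genes responded to 2 h of JA. WRKY18, which acts with WRKY40 and WRKY60 in basal defence, was the only member called, where a call needed an adjusted p (Benjamini-Hochberg) of 0.05 or less with a 2-fold or larger change. It had 14.6 and 13.7 CPM in Set1_2hJA, against 3.33 and 2.42 CPM in Set1_ctrl. In Set2 it had 39.3, 18.9 and 16.3 CPM in Set2_2hJA, against 7.75, 6.71 and 12.6 CPM in Set2_ctrl. All JA libraries lay above all ctrl libraries of their own set, and Set2_2hJA replicate 1 stood highest. After JA its Set2 libraries also lay above its Set1 libraries.

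WRKY18 rose in Set1 by 2.26 ± 0.25 on the log2 scale (edgeR quasi-likelihood test, adjusted p = 0.00301) and in the combined fit of all 10 libraries with the set as a covariate by 1.78 ± 0.29 (adjusted p = 0.00131). In Set2 alone the value was 1.501 ± 0.38, with an adjusted p of 0.0534, which missed the threshold. With the replicate number as a block it was 1.42 ± 0.34 and passed (adjusted p = 0.0444). The block is the fitting design if a Set2 number marks a shared time course, which the study leaves unstated. Without the block WRKY18 also passed when Set2_ctrl replicate 3 (1.82, adjusted p = 0.0492) or Set2_2hJA replicate 3 (1.74, adjusted p = 0.0396) was left out. Without Set2_2hJA replicate 1 it was 0.94 ± 0.26 (adjusted p = 0.111), and the combined value was then 1.52 ± 0.28 (adjusted p = 0.00461). The study counts WRKY18 among its MYC2 core genes, chosen partly by induction in Set2, so the Set2 value is not independent of that choice. Its rule for induction was a 2-fold or larger change with P of at most 0.05, which is not the threshold used here. The unadjusted p of WRKY18 in Set2 was 0.00318 (edgeR). The interaction, the Set2 response minus the Set1 response, was -0.78 ± 0.57 for WRKY18 (adjusted p = 0.857).

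In number, 1 of 10 members was called higher in Set1 and 0 lower, where 2.94% of 20098 genes were called higher and 2.2% lower. The combined fit also called 1 of 10 higher and 0 lower, against 2.63% and 1.4% of 20213 genes. In Set2 edgeR without the replicate block called 0 of 10, where 1.78% of 19259 genes were called higher and 0.758% lower. With the block it called 1, WRKY18, where 382 genes were called higher and 167 lower. Without the block 4 members had an unadjusted p under 0.05, as did 18.2% of genes. DESeq2 called 1, WRKY18, where it called 1.98% of genes higher. The median log2 fold change of the 10 was 0.14 in Set2, 0.39 in Set1 and 0.10 in the combined fit, beside 0.012, -0.024 and 0.015 over all genes tested. All Set2_2hJA libraries lay above all Set2_ctrl libraries for 2 members and below for 1, where 10.1% and 11.7% of 19822 genes with a mean of at least 10 counts did so. All Set1_2hJA libraries lay above all Set1_ctrl libraries for 3 members and below for 2, where 26.9% and 22.8% of genes did so.

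WRKY40, the closest partner of WRKY18 and a repressor of defence genes, had 3.78 and 2.31 CPM in Set1_2hJA, against 0.855 and 0.985 CPM in Set1_ctrl. In Set2 it had 11.0, 3.10 and 5.24 CPM in Set2_2hJA and 4.14, 4.02 and 7.96 CPM in Set2_ctrl, so that the groups overlapped. Its log2 fold change was 1.68 ± 0.45 in Set1 (adjusted p = 0.0840) and 0.31 ± 0.47 in Set2 (adjusted p = 0.786). Without Set2_2hJA replicate 1 the Set2 value was -0.39. WRKY60, the third of group IIa, had 16.8, 18.1 and 15.4 CPM in Set2_2hJA, all below the 19.4, 25.2 and 25.8 CPM in Set2_ctrl. Its Set2 value was -0.47 ± 0.14 (adjusted p = 0.103), and in Set1, where the groups overlapped, it was 0.54 ± 0.51 (adjusted p = 0.647), with 0.0061 to 1.40 when single libraries were left out. The group IIa genes therefore had a single call between them.

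WRKY33, a group I factor needed for resistance to necrotrophic fungi and for synthesis of the antifungal compound camalexin, had the same value in both sets within its error. It had 36.2, 27.4 and 25.4 CPM in Set2_2hJA against 40.2, 33.1 and 43.7 CPM in Set2_ctrl, a log2 fold change of -0.37 ± 0.18 (adjusted p = 0.309). In Set1 it had 9.12 and 10.6 CPM in Set1_2hJA against 12.8 and 12.0 CPM in Set1_ctrl, a log2 fold change of -0.36 ± 0.19 (adjusted p = 0.369). The combined value was -0.36 ± 0.13 (adjusted p = 0.0842), and without Set2_2hJA replicate 1 it was -0.48 ± 0.11 (adjusted p = 0.0186), which is under 2-fold.

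The group III genes gave values of opposite sign in the sets for 1 of them. WRKY53, a regulator of leaf senescence, had 4.33 and 3.22 CPM in Set1_2hJA, against 1.45 and 1.61 CPM in Set1_ctrl. In Set2 it had 3.59, 1.75 and 4.82 CPM in Set2_2hJA, against 10.3, 3.22 and 7.69 CPM in Set2_ctrl. The log2 fold change was 1.26 ± 0.37 in Set1 (adjusted p = 0.106) and -1.05 ± 0.46 in Set2 (adjusted p = 0.271). The interaction, Set2 minus Set1, was -2.32 ± 0.70 with an unadjusted p of 0.00667, and it failed the correction (adjusted p = 0.395). WRKY46, which shares roles with WRKY53 and WRKY70, had -0.67 ± 0.47 in Set2 and -0.23 ± 0.55 in Set1, with 8 to 35 counts a library.

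WRKY11, which limits basal resistance together with WRKY17, had 46.4, 39.5 and 38.7 CPM in Set2_2hJA, all above the 35.8, 30.8 and 31.3 CPM in Set2_ctrl. In Set1 it had 31.1 and 32.5 CPM in Set1_2hJA, both below the 38.1 and 41.5 CPM in Set1_ctrl. In TPM the Set1 groups overlapped, with 25.16 and 36.26 TPM in Set1_2hJA against 25.64 and 43.83 TPM in Set1_ctrl. The log2 fold changes were 0.36 ± 0.13 in Set2 (adjusted p = 0.169) and -0.35 ± 0.16 in Set1 (adjusted p = 0.290), and the interaction was 0.70 ± 0.20 (unadjusted p = 0.00495, adjusted p = 0.365). Over all 20213 genes the main edgeR fit called 0 interactions in either direction (0%), with 1438 at an unadjusted p under 0.05. The number depended on the setting. DESeq2 called 59 higher and 89 lower, and edgeR with the replicate block called 29 and 32. With no filter on low counts edgeR called 38 and 41 of 30479 genes. None of these calls was a member.

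The remaining members had small or loosely measured values. WRKY6, a senescence factor that also represses the phosphate exporter gene PHO1, had a log2 fold change of 0.27 ± 0.13 in Set2 and 0.17 ± 0.24 in Set1. WRKY75, known from phosphate starvation and senescence, had 0.67 ± 0.46 in Set2 and 0.98 ± 0.67 in Set1, a Set1 value that was 0.33 to 2.26 when single libraries were left out. WRKY50, the gene with the AAG codon, is known with WRKY51 for repression of JA signalling by salicylic acid. It had 2.25, 1.48 and 1.56 CPM in Set2_2hJA against 2.40, 1.61 and 1.37 CPM in Set2_ctrl, and its values were 0.01 ± 0.41 in Set2 and 0.25 ± 0.39 in Set1. From the density over silent genes, 43.4% of the WRKY50 counts, 38.2% of the WRKY53 counts and 34.1% of the WRKY46 counts in Set2_2hJA replicate 1 were estimated to be background, against 3.13% for WRKY18.

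**Figure D2:**
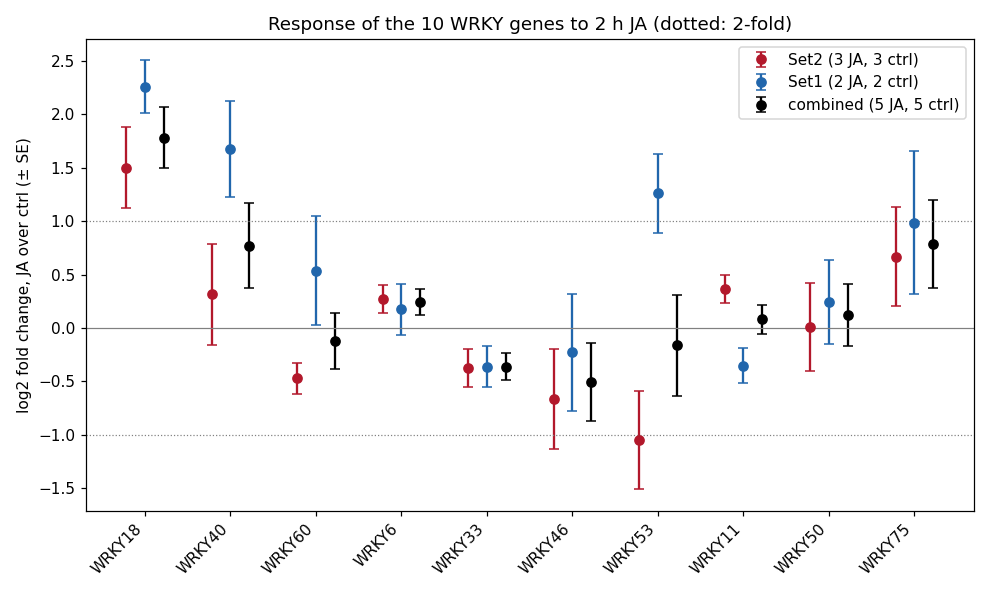
Log2 fold change of JA over ctrl (y axis, points with SE bars) for the 10 WRKY genes (x axis) in Set2, in Set1 and in the combined fit, with dotted lines at a 2-fold change. WRKY18 lies above the upper line in all 3 fits, and WRKY53 lies at -1.05 in Set2 and 1.26 in Set1.

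The second question was whether untreated seedlings of the experiments had the same levels. Set2_ctrl was higher than Set1_ctrl for 6 of 10 members and lower for 0, where 4.07% of 20213 genes were called higher and 3.44% lower. The median log2 difference of the 10 was 1.67, beside 0.005 over all genes tested. All 3 Set2_ctrl libraries lay above both Set1_ctrl libraries for 8 of 10 members, as they did for 23.1% of those 19822 genes, and below for 1 member, WRKY11, as for 26.6% of genes. After JA the Set2 libraries lay above the Set1 libraries for 6 members and below for 0, where 21.7% and 28.2% of genes did so. The sets are separate experiments with other depths, so that growth, handling and library preparation cannot be told apart.

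WRKY60 was higher in Set2_ctrl by 2.65 ± 0.36 (adjusted p = 8.45e-04), within the error of the WRKY40 value. It had 19.4, 25.2 and 25.8 CPM in Set2_ctrl, against 5.39 and 2.06 CPM in Set1_ctrl. Without Set1_ctrl replicate 1 the WRKY60 difference was 3.51, and without replicate 2 it was 2.12, both past the threshold. In that last fit 2 members lay above WRKY60: WRKY40 had 2.63 and was called (adjusted p = 0.0493), and WRKY53 had 2.27 and was not (adjusted p = 0.0511). WRKY33 was higher by 1.66 ± 0.20 (adjusted p = 4.29e-04), with 40.2, 33.1 and 43.7 CPM in Set2_ctrl against 12.8 and 12.0 CPM in Set1_ctrl. WRKY40 was higher by 2.54 ± 0.60 (adjusted p = 0.0143), WRKY53 by 2.21 ± 0.52 (adjusted p = 0.0146), WRKY46 by 1.86 ± 0.57 (adjusted p = 0.0415) and WRKY18 by 1.65 ± 0.44 (adjusted p = 0.0246). WRKY40 had 4.14, 4.02 and 7.96 CPM in Set2_ctrl against 0.855 and 0.985 CPM in Set1_ctrl, which rest on 10 and 11 counts. The count of calls depended on the Set1_ctrl libraries: it was 2 without replicate 1 (WRKY33 and WRKY60) and 3 without replicate 2 (WRKY33, WRKY40 and WRKY60). WRKY18 was also lost without Set2_ctrl replicate 3 (1.34, adjusted p = 0.0809). WRKY46 was also lost without Set2_ctrl replicate 1 or 3 (1.78 and 1.68), Set1_2hJA replicate 1 (1.85) or Set2_2hJA replicate 2 (1.86), with adjusted p of 0.0514 to 0.119.

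Members that were not called differed among themselves. WRKY6 was higher by 0.68 ± 0.19, under 2-fold (adjusted p = 0.0256), and WRKY75 had a difference of 1.68 ± 0.67 (adjusted p = 0.102), which was 1.02 to 2.92 when single libraries were left out. WRKY50 had -0.08 ± 0.44 (adjusted p = 0.918) and WRKY11 had -0.27 ± 0.14 (adjusted p = 0.201). With library totals in place of TMM the median of all genes moved to 0.47, WRKY6 and WRKY75 were called as well, and WRKY11 and WRKY50 turned to 0.18 and 0.39, which lie below that median. That fit called 2356 of 20213 genes higher, against 823 with TMM.

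**Figure D3:**
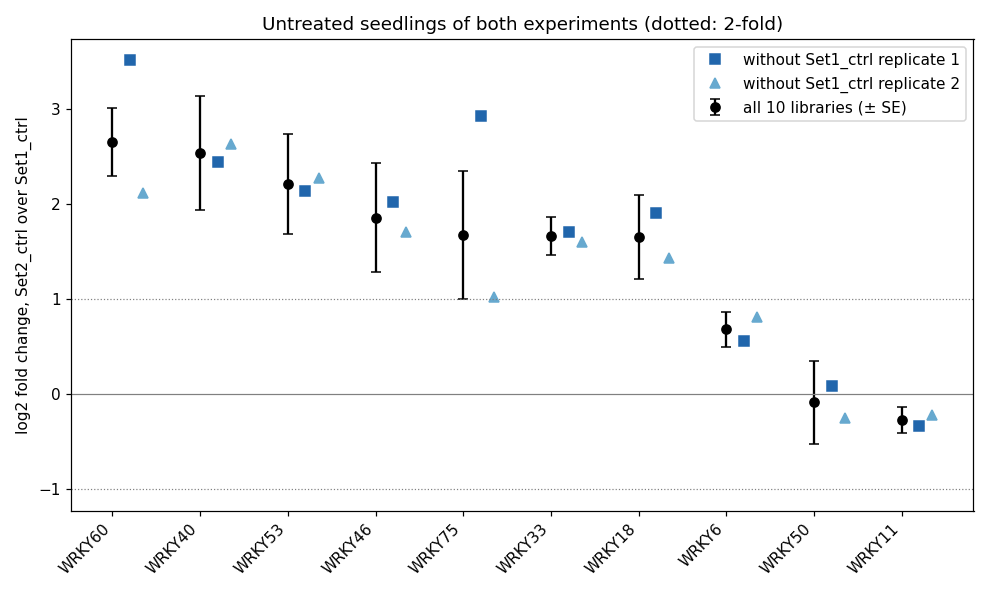
Log2 fold change of Set2_ctrl over Set1_ctrl (y axis) for the 10 WRKY genes (x axis, ordered by value), with SE bars for the fit of all libraries, squares for the fit without Set1_ctrl replicate 1, triangles for the fit without replicate 2 and dotted lines at a 2-fold change. WRKY60 is first at 2.65 and WRKY11 last at -0.27.

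Other genes moved between the control groups with the members. Of 10 touch and rapid stress genes, 1 was called higher in Set2_ctrl and 0 lower. The number called higher depended on the scaling: it was 7 with library totals, which moved the median of all genes to 0.47, and 8 with limma on either TPM scale, and it was 1 or 2 in every other alternative run. Over all 20213 genes library totals called 2356 higher and limma 3369 and 4511, against 823 with TMM. The gene called with TMM was the calmodulin-like gene TCH3, at 2.47 ± 0.37 (adjusted p = 0.00147), with 84.1, 54.6 and 154.0 CPM in Set2_ctrl against 20.01 and 15.4 CPM in Set1_ctrl. The summed CPM of the list was 174 to 327 in Set2_ctrl and 98.6 to 109 in Set1_ctrl. Shoot markers summed to 28066 to 32085 CPM in Set2_ctrl and 46678 to 47699 CPM in Set1_ctrl, and root markers to 37.7 to 55.0 and 53.2 to 76.7 CPM. Their part in the WRKY differences was not tested.

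Several members overlap neighbouring genes. WRKY53 shares 341 bases with 3xHMG-box2 on the opposite strand, and its expected counts were not whole in any of the 10 libraries, so its values are uncertain. 3xHMG-box2 was lower in Set2_ctrl than in Set1_ctrl (log2 fold change -1.36 ± 0.15, adjusted p = 3.27e-04), opposite to WRKY53. WRKY33 shares 272 bases with AT2G08965 and 26 with AT2G38480, and WRKY40 shares 51 with AT1G80850, all on the opposite strand. The expected counts of WRKY33 and WRKY40 were whole in all 10 libraries. The study names a stranded library kit, and the use of strand in counting is not stated.

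Of 57 further WRKY genes, 43 passed the filter on low counts in the fits of all libraries. In the combined fit 1 was called higher with JA and 0 lower: WRKY42, a group IIb relative of WRKY6, by 1.02 ± 0.31 (adjusted p = 0.0490), a call that was lost in 14 of 20 alternatives, 7 of them single libraries left out. With the replicate block WRKY42 had 0.99 (adjusted p = 0.0372), under 2-fold. In the controls 11 were called higher in Set2_ctrl and 0 lower, and the median log2 difference of the 43 was 0.59. The count was 6 without Set1_ctrl replicate 1, 7 without replicate 2 and 3 without both high-plastid Set1 libraries, and 19 and 21 with limma on log2(TPM + 1) and log2(TPM + 0.1). Those limma fits called 3369 and 4511 of all 20213 genes higher, against 823 in the main fit. Both group I relatives of WRKY33 were among those called, WRKY25 at 1.67 ± 0.20 (adjusted p = 4.57e-04) and WRKY26 at 2.03 ± 0.26 (adjusted p = 6.03e-04). WRKY45, a IIc relative of WRKY75, was higher by 2.65 ± 0.45 (adjusted p = 0.00283), WRKY48 by 1.93 ± 0.42 (adjusted p = 0.00893) and WRKY61 by 1.77 ± 0.42 (adjusted p = 0.0138). WRKY30, a group III gene, had 44, 7 and 27 counts in Set2_ctrl and 0 in both Set1_ctrl libraries, which is at least 13.4-fold higher against a floor of 3 counts per library. WRKY71 had 28 counts in Set2_ctrl and 1 in Set1_ctrl, a ratio of 28.8 (95% counting interval 4.76 to 1177). WRKY51, the partner of WRKY50, had 38 and 4 counts, a ratio of 9.77 (95% counting interval 3.52 to 37.7). The calls of WRKY25, WRKY26 and WRKY45 held in each of these omissions. That of WRKY48 was lost without both high-plastid libraries (adjusted p = 0.0530), and that of WRKY61 without Set1_ctrl replicate 2, Set2_ctrl replicate 2 or both high-plastid libraries (adjusted p of 0.0516 to 0.0733). The WRKY30 and WRKY71 calls were lost without Set1_ctrl replicate 1 (adjusted p = 0.0515 and 0.154) and without both high-plastid libraries, and the WRKY51 call also without Set1_ctrl replicate 2 (adjusted p = 0.134). Of 6 tested IId relatives of WRKY11, 0 were called, with a median of 0.15.

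Genes that work with WRKY factors showed few calls after JA. Of 9 kinases and VQ partner proteins, 0 were called in the main fits of Set2, of Set1 or of both sets combined. Some alternatives called 1 higher. These were limma on log2(TPM + 0.1) in Set1, and in the combined fit subtraction of the silent-gene density and the omission of some single libraries. VQ22, a VQ protein also known as JAV1, had a combined log2 fold change of 0.98 ± 0.26 (adjusted p = 0.0266), just under 2-fold, and in the controls it was higher in Set2_ctrl by 1.55 ± 0.43 (adjusted p = 0.0273). SIB1, a VQ partner of WRKY33, was also higher in Set2_ctrl, by 1.55 ± 0.46 (adjusted p = 0.0366). Neither call held throughout: VQ22 had 1.23 (adjusted p = 0.187) without Set1_ctrl replicate 1 and was also lost without Set2_ctrl replicate 2 or 3. SIB1 had 1.104 (adjusted p = 0.181) without Set1_ctrl replicate 2 and was also lost without Set2_ctrl replicate 1 or 3. With only the 5 control libraries SIB1 was lost too (1.56, adjusted p = 0.0542). Both VQ22 and SIB1 were lost without both high-plastid libraries as well. MPK3, a kinase that phosphorylates WRKY33, had a control difference of 0.97 ± 0.15 (adjusted p = 0.00189), under 2-fold.

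Of 14 WRKY target and salicylate genes, 10 were tested in Set1, 2 were called higher with JA and 1 lower. The number called higher was 6 of 13 tested without Set1_2hJA replicate 1 and with no filter on low counts, 4 of 13 without Set1_ctrl replicate 1, and 4 of 10 with DESeq2, library totals, limma on log2(TPM + 0.1), the replicate block or without organelle and ribosomal RNA genes. PR5, a pathogenesis-related gene, rose in Set1 by 1.54 ± 0.23 (adjusted p = 0.0111). FRK1, a receptor kinase gene used as a defence marker, had 108 and 99 counts in Set1_2hJA against 3 and 2 in Set1_ctrl, a ratio of 32.4 (95% counting interval 13.7 to 101). PAD4, a lipase-like regulator of salicylate signalling, was lower in Set1_2hJA than in Set1_ctrl (log2 fold change -1.38 ± 0.20, adjusted p = 0.00934) and had -0.15 ± 0.14 in Set2 (adjusted p = 0.614). The Set1 calls of PR5 and FRK1 held when any single library was left out, and that of PAD4 was lost without Set1_2hJA replicate 1 (-1.32, adjusted p = 0.0507), with library totals and with limma on TPM. Limma on log2(TPM + 1) also lost the PR5 call (adjusted p = 0.0632). In Set2 0 of the 12 tested were called. The combined fit called 2 of 13 higher, PR5 and FRK1, and 0 lower, with 1 to 4 called higher in the alternatives. The salicylate gene EDS1 was lower with JA in each fit, under 2-fold: -0.46 ± 0.12 in Set2, -0.54 ± 0.17 in Set1 and -0.48 ± 0.09 combined (edgeR adjusted p = 0.0607, 0.129 and 0.00304). ICS1, of the same list, had -0.28 ± 0.08 in the combined fit (adjusted p = 0.0447). In the controls 6 of 13 were called higher in Set2_ctrl and 0 lower, with 4 called without Set1_ctrl replicate 1 or without both high-plastid libraries and 7 and 9 with limma on TPM. In that comparison limma called 3369 and 4511 of all 20213 genes higher, against 823 in the main fit. Among the 6 of the main fit was CYP71A12, an enzyme gene of camalexin and related compounds, with 1673 counts in Set2_ctrl and 3 in Set1_ctrl, a ratio of 574 (95% counting interval 196 to 2784).

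Across the 10 libraries the log2 CPM of WRKY33 varied with that of WRKY46 (Pearson r = 0.903) and of WRKY60 (r = 0.880), and WRKY18 with WRKY40 (r = 0.820). WRKY11 and WRKY50 had r between -0.39 and 0.33 with all other members. Outside the members, the gene most like WRKY18 was CYP81D1 (r = 0.966), the gene most like WRKY60 was CSLE1 (r = 0.972), and the gene most like WRKY53 was MYB111 (r = 0.917). The most like WRKY33, WRKY40 and WRKY46 were AT5G15870 (r = 0.987), EMB2794 (r = 0.975) and AT1G59910 (r = 0.971). These values are a description over 10 libraries that share their set and treatment, and they carry the difference between the sets.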

How the data were processed

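RNA-seq was analysed for 10 WRKY genes in 10 libraries, and groups and replicate numbers came from the sample titles. Per the study's methods and the submitters' processing notes, the authors aligned reads with STAR (2.7.5a) to TAIR10 and quantified them with RSEM (1.3.3). The authors deposited expected counts, which are estimated counts and need not be whole, and TPM, scaled by effective length and library total. Their edgeR (3.36.0) tables of fold changes, p-values and FDR were not used here.

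Expected counts were rounded and tested with edgeR (4.0.16, R 4.3.3) across all genes after filterByExpr by group and TMM scaling, with the quasi-likelihood F test and Benjamini-Hochberg adjustment. Calls needed an adjusted p of at most 0.05 and, except for the interaction, a 2-fold change. Each set was fitted alone; the combined, interaction and control fits used all 10 libraries. SE is the log2 fold change over the root of F. All 10 members passed the filter in every fit. Same-numbered JA and ctrl libraries deviated together from their group means (correlation across genes 0.245, 0.236 and 0.243 in Set2, 0.449 in Set1). Differently numbered Set2 pairs had correlations of -0.252 to 0.00531. The main fits left this pairing out, because the study does not state that a number marks a shared plate or day. Set2 belongs to a large-scale experiment that the study describes as independent JA time courses. A Set2 number may therefore mark ctrl and JA libraries of the same course, which the main Set2 fit ignores. A replicate block was run as an alternative. In the JA and interaction fits the block is a replicate number within each set. In the control comparison it is the replicate number across both sets, so same-numbered libraries of separate experiments share a term. In simulated data with 200 genes changed 4-fold among 32833, the Set2 fit called 95.5% and the Set1 fit 89%. These fits also called 15 and 37 unchanged genes. The changed genes were drawn from those with a mean of at least 20 counts. The rates therefore do not cover members with fewer counts or smaller changes.

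Alternatives were DESeq2 (1.42.0), RLE scaling, library totals, no filter, no organelle or ribosomal RNA genes, limma (3.58.1) on log2(TPM + 1) or log2(TPM + 0.1), a replicate block, only the 5 control libraries for the control comparison, and leaving out each library. Subtraction of the silent-gene density and leaving out both high-plastid Set1 libraries were chosen after seeing the data. Counting intervals and floors cover counting error only. Positions and sequences are from RefSeq on TAIR10.1. Named were all members, other WRKY genes called in the combined or control fit (at most 8 of smallest adjusted p) and some genes of each list. The genes most like a member are those of highest Pearson r of log2 CPM. WRKY70 and WRKY17 are named only as partners. The members and lists were chosen with earlier results of these data known.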

Additional observations from a re-analysis of the deposited data

Results flagged for a closer look

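The CPM of WRKY11 lay on opposite sides of its controls in the experiments: every Set2_2hJA library was above every Set2_ctrl library, as for 10.1% of genes, and both Set1_2hJA libraries were below both Set1_ctrl libraries, as for 22.8% of genes. In TPM the Set1 groups overlapped. Neither response passed its own test (edgeR, 0.36 with adjusted p = 0.169 in Set2 and -0.35 with adjusted p = 0.290 in Set1). The difference between the responses, Set2 minus Set1, was 0.697 on the log2 scale, and its test did not pass either (adjusted p = 0.365).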

How the results depend on the processing

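The combined and Set1 calls of WRKY18 held under every alternative run, with combined values of 1.52 to 2.01. Subtraction of the silent-gene density could not change the Set1 call, because silent genes were defined as those without a count in Set1. In Set2 the members called higher numbered 1 (WRKY18) with DESeq2, with no filter, without organelle and ribosomal RNA genes and with the replicate block, and 0 to 1 when single libraries were left out. In Set1 the replicate block gave 2 (WRKY40 added, 1.65, adjusted p = 0.0350), where the 2 pairs were matched by number alone. Both replicate 1 libraries also had the high plastid shares, 13.8% in Set1_ctrl and 11.4% in Set1_2hJA. The files of the 2 Set1_ctrl samples are numbered the other way round from their titles. Titles were followed here, so the WRKY40 call rests on that choice. With 2 libraries a group the opposite pairing has the correlation with its sign turned (-0.449) by construction, which adds no evidence. In the controls the count was 2 to 6 when single libraries were left out and 2 without both high-plastid Set1 libraries, and the block added WRKY75 (2.02, adjusted p = 0.0389). The block changed no other member's call. In the control comparison it joins same-numbered libraries of separate experiments, so the WRKY75 call rests on a pairing that the design does not give. The Set2 fit with the block called 382 genes higher and 167 lower, against 343 and 146 without it.

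Signs turned only in values under the threshold. In Set2 WRKY50 was -0.043 with no filter, -0.0063 and -0.011 with limma, -0.0041 with the block and -0.25 after density subtraction. In the combined fit WRKY60 was 0.0022 and 0.061 with limma, and WRKY50 -0.010 after density subtraction. In the interaction WRKY6 was -0.024 with library totals, -0.059 and -0.084 with limma and -0.047 without both high-plastid libraries, and WRKY33 was 0.021 after density subtraction. In the controls WRKY11 was 0.18 with library totals and 0.40 and 0.41 with limma, and WRKY50 was 0.39, 0.40, 0.55, 0.028 with the block and 0.090 without both high-plastid libraries. Leaving out single libraries gave these ranges: in Set2 WRKY40 -0.39 to 0.70 and WRKY50 -0.26 to 0.28, in Set1 WRKY6 -0.13 to 0.45 and WRKY46 -0.58 to 0.10, in the combined fit WRKY11 -0.025 to 0.15 and WRKY53 -0.45 to 0.17, in the interaction WRKY6 -0.18 to 0.38, WRKY33 -0.23 to 0.081, WRKY50 -0.52 to 0.0082 and WRKY75 -1.60 to 0.29, and in the controls WRKY50 -0.35 to 0.090. The cause was not tested. Limma on TPM and library totals called 8 members in the controls, with WRKY6 and WRKY75 added. These settings also called more genes higher over all 20213. The counts were 3369 and 4511 with limma on log2(TPM + 1) and log2(TPM + 0.1) and 2356 with library totals, against 823 in the main fit. Depth limits WRKY46 (8 to 35 counts a library), WRKY50 (10 to 34) and WRKY75 (4 to 58), and in Set1_ctrl WRKY40 (10 and 11) and WRKY53 (16.73 and 18.02).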
